A study of Mus musculus with 18 samples.

Results

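Bone marrow-derived macrophages (BMDMs) labelled HDAC3 KO were exposed either to apoptotic cells (ACs) or to non-apoptotic cells (NACs), and their RNA was sequenced. This comparison was chosen by sample title, and it takes 6 of the 18 libraries of the series, 3 titled HDAC3 KO-AC and 3 titled HDAC3 KO-NAC. Both groups carry the same genotype label, so the comparison asks how the transcripts of these macrophages differed after contact with dying rather than living cells. The other 12 libraries are HDAC3 KO macrophages without treatment and macrophages titled WT under all conditions. For the sequenced controls the study's methods name HDAC3f/f mice, which carry floxed Hdac3, so WT is used here as the label in the titles. In the mice behind the HDAC3 KO label, LoxP sites lie on either side of exon 7 of Hdac3 and Cre recombinase is driven from the Lyz2 locus, so the deletion depends on Cre in myeloid cells. Marrow cells were grown into macrophages in medium conditioned by L929 cells, a mouse fibroblast line. Both kinds of added cell were K562, a line from a human leukemia. For ACs they had been kept under UVB light for 15 min, followed by 2 h before use, and for NACs they had not. Coculture lasted 45 min, loose K562 cells were washed off, and RNA was taken after another 5 h. The study's methods give 3 animals per group. The reads were aligned to a mouse genome only, and the part of them that may come from human RNA was not analysed here.

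Clearing of dying cells by phagocytes is called efferocytosis. Phosphatidylserine on the dying cell is bound directly or through bridging molecules such as Gas6 and Mfge8, receptors such as Axl, Mertk and the integrin αvβ3 trigger engulfment, and the phagosome then matures and fuses with lysosomes. The digested cell leaves the macrophage with a load of cholesterol, which activates the liver X receptors (LXRs) and cholesterol efflux through Abca1 and Abcg1, while inflammatory cytokine output is usually dampened. HDAC3 is a histone deacetylase that works within the NCoR and SMRT corepressor complexes.

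The depth was 20621976, 9431435 and 20077532 counts on genes in NACs replicates 1 to 3 and 22664522, 21505343 and 18495507 in ACs replicates 1 to 3. CPM is counts divided by the library total after TMM scaling, on a common scale. The 14 macrophage markers summed to 13500 to 22500 CPM with NACs and 17300 to 20000 CPM with ACs. Lyz2 alone gave 13800 CPM in NACs replicate 1. These sums describe the libraries and are no test of the cell type label. Mouse markers of erythroid cells, the lineage that K562 cells resemble, summed to 45.2 to 79.0 CPM with NACs and 47.3 to 66.9 CPM with ACs. Most of this sum came from Tfrc and Tal1, which other cells express too, and 4 of the 15 markers were at 0 in all 6 libraries. The globin gene Hba-a1 had 0.0499, 0.726 and 0.497 CPM with NACs and 2.21, 0.046 and 13.9 CPM with ACs, a difference that did not pass (log2 fold change 3.73, SE 1.97, adjusted p = 0.325, edgeR quasi-likelihood, Benjamini-Hochberg) but did without ACs replicate 2 (adjusted p = 0.00139, same test), and Hbb-bs was above 0.1 CPM only in ACs replicates 1 and 3. The part of such cells in the results was not tested. Hdac3 itself, the targeted gene, had 4.99, 35.5 and 45.2 CPM with NACs and 42.3, 11.1 and 18.7 CPM with ACs. It varied several-fold between libraries of one label and condition, and the groups overlapped (log2 fold change −0.25, SE 0.765, adjusted p = 0.88, edgeR quasi-likelihood, Benjamini-Hochberg; exact permutation test, p = 1). Counts cover the whole gene and not exon 7 alone, so the level does not check the deletion, and each group is therefore named by its label. ACs replicate 2 stood apart. On the first principal component of log2 CPM, which held 48.1% of the variance, the NACs libraries lay at −53.73, −50.05 and −30.77 and ACs replicates 1 and 3 at 61.63 and 73.16, with ACs replicate 2 between them at −0.23.

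After ACs, 904 of 12244 tested genes (7.38%) passed an adjusted p of 0.05 in the edgeR quasi-likelihood test (Benjamini-Hochberg). Of these, 325 (2.65% of the genes tested) were higher and 579 (4.73%) lower with ACs than with NACs, and each of them changed by at least 1.17 on the log2 scale. The groups of 3 libraries did not overlap for 876 of the called genes, against 29.7% of all genes tested. At an unadjusted p under 0.05 by this test there were 3095 genes, 25.3% of those tested. DESeq2 called 1400 genes and limma-voom 860, totals to set beside the counts in the lists below. The median log2 fold change of all genes was 0.09. With library totals in place of TMM factors this median was −0.07, 578 genes passed, and 13.3% of them were higher, against 36.0% with TMM factors. No gene passed without ACs replicate 1 (2169 at an unadjusted p under 0.05), and 3013 passed without ACs replicate 2. The count was 308 without ACs replicate 3 and 436, 310 and 599 without NACs replicates 1, 2 and 3.

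**Figure D1:**
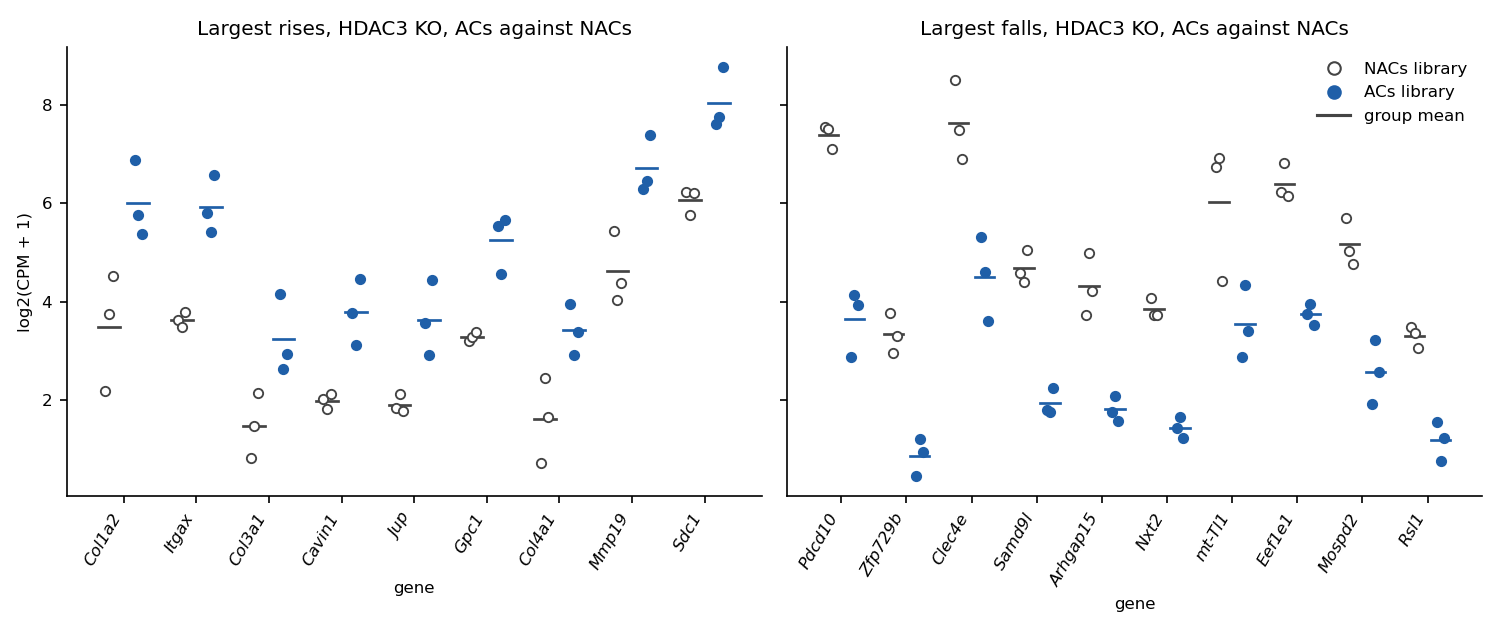
Log2 of CPM plus 1 (vertical axis) in each of the 6 libraries for 9 of the 10 largest rises (left) and the 10 largest falls (right), ordered by log2 fold change. Open circles are the 3 NACs libraries, filled circles the 3 ACs libraries and bars the group means. Genes were chosen for groups that do not overlap, so the gap is a description, widest in Pdcd10.

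Transcripts of the called lower genes had a median GC content of 42.5%, those of the called higher genes 53.8% and all tested genes 50.3%. In the quintile of genes with the lowest GC content, 400 passed as lower and 5 as higher, and in the quintile next to the highest 19 passed as lower and 124 as higher. The same shift could be seen per library and was unequal between ACs libraries. Relative to the NACs mean, the lowest quintile lay at −0.806 in ACs replicate 1, −0.272 in ACs replicate 2 and −1.284 in ACs replicate 3 on the log2 scale. With a smooth offset for gene length and GC content fitted in each library, 679 of 12225 genes passed, and 347 of them were among the 904. Of the 679, 225 were higher (1.84% of the genes tested) and 454 lower (3.71%). Of the 904 genes 903 had a GC content and could be fitted with the offset, and none of these changed sign. Where a result below did not pass with this offset, that is said beside it.

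**Figure D2:**
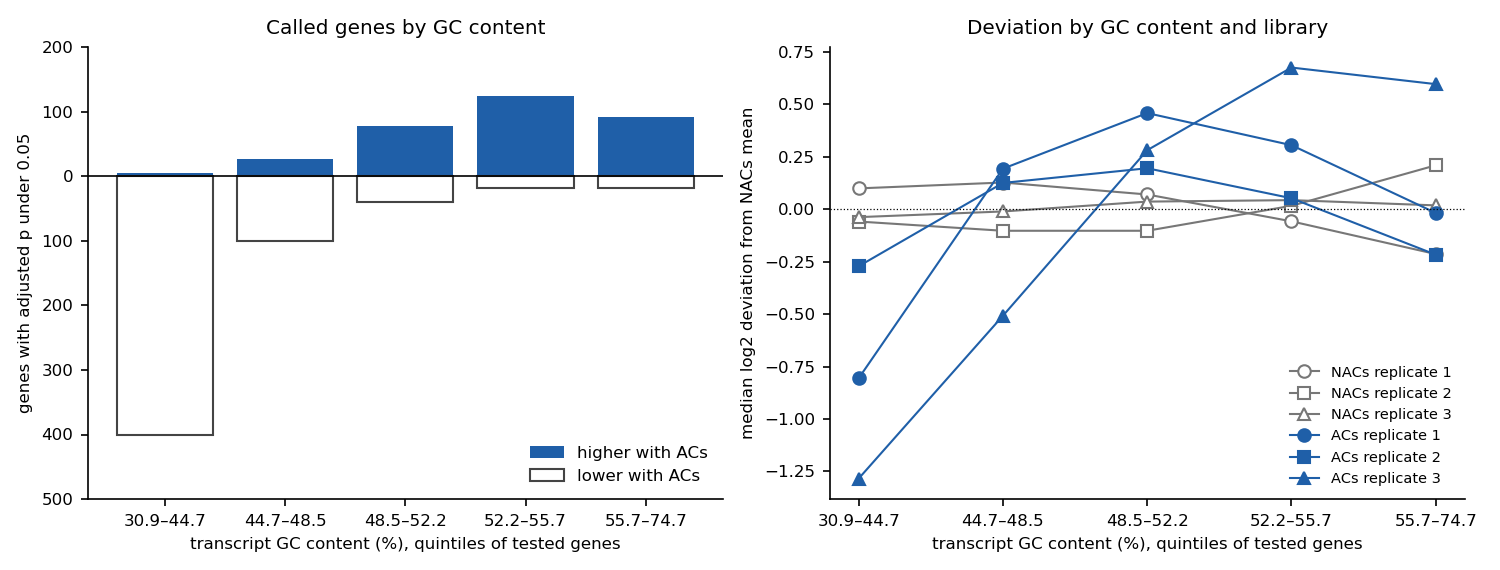
Number of genes with an adjusted p under 0.05 that were higher (up, filled bars) or lower (down, open bars) with ACs, by quintile of transcript GC content (left), and the median log2 deviation of each quintile from the mean of the 3 NACs libraries in each of the 6 libraries (right). The lowest quintile holds 400 of the 579 falls, and ACs replicates 1 and 3 lie furthest below the NACs libraries there.

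The base composition of single genes varied around these medians. As examples, the first 90 bases of the coding sequence are given for the pair of genes with the lowest p among the largest falls (Pdcd10 and Samd9l) and among the largest rises (Itgax and Gpc1), from GENCODE M21 transcripts on GRCm38, read 5′ to 3′ from the start codon with G and C in capitals. G and C made up 42.2% of these bases in Pdcd10 (reverse strand of chromosome 3), 34.4% in Samd9l (reverse strand of chromosome 6), 44.4% in Itgax (forward strand of chromosome 7) and 76.7% in Gpc1 (forward strand of chromosome 1). The stretches of Pdcd10 and Itgax, a fall and a rise, hardly differed in this share, while those of Samd9l and Gpc1 lay far apart. Over whole transcripts the GC content was 38.5% in Pdcd10 and 39.0% in Samd9l, against 50.8% in Itgax and 58.3% in Gpc1. The short stretches therefore do not stand for the transcripts.
Pdcd10: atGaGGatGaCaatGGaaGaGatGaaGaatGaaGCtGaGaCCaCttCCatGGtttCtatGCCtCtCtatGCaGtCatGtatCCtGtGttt
Samd9l: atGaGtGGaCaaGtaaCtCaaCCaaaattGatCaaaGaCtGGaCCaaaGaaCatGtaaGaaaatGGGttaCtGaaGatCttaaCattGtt
Itgax: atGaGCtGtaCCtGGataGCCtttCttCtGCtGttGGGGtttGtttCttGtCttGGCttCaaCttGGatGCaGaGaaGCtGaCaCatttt
Gpc1: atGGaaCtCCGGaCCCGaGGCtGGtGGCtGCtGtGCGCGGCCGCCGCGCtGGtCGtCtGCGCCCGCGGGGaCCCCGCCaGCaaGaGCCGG

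Among genes with a mean of at least 5 CPM, the largest rises were in genes of the cell surface and matrix. Itgax (chromosome 7, 128129547 to 128150657), which encodes the CD11c chain of an integrin that binds complement fragments, had 11.4, 10.2 and 12.8 CPM with NACs and 54.6, 41.8 and 94.3 CPM with ACs. Every ACs library was above every NACs library, a 5.54-fold difference (log2 fold change 2.47, SE 0.414, adjusted p = 0.00101, edgeR quasi-likelihood, Benjamini-Hochberg). Sdc1, a heparan sulfate proteoglycan that binds growth factors and matrix, had 74.7, 53 and 73.4 CPM with NACs and 196, 216 and 436 CPM with ACs (log2 fold change 2.08, SE 0.406, adjusted p = 0.00266, same test). Gpc1, another heparan sulfate proteoglycan, is anchored to the membrane by a lipid and rose by 2.17 (SE 0.418, adjusted p = 0.0025, same test). Mmp19, a matrix metalloproteinase, was 4.24-fold higher (15.5 to 42.7 CPM with NACs, 77.4 to 168 CPM with ACs, adjusted p = 0.0042, same test). Cavin1, which coats caveolae, and Jup, the junction protein plakoglobin, both rose by 2.20 on the log2 scale. These 6 genes also passed with the GC and length offset (log2 fold change 1.67 for Sdc1 to 2.05 for Itgax).

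Several integrin genes rose besides Itgax, and the family was picked out after its values had been seen. Of 17 integrin chain genes tested 6 passed as higher and 0 as lower, against 2.65% and 4.73% of all genes, and the median log2 fold change was 1.00. Itgb2, the β2 chain that pairs with CD11c, rose from 287, 171 and 243 CPM to 723, 412 and 877 CPM (log2 fold change 1.52, SE 0.399, adjusted p = 0.0201, edgeR quasi-likelihood, Benjamini-Hochberg). Itgad, another of its partners, had 0.399, 0.415 and 0.415 CPM with NACs and 3.77, 2.35 and 2.12 CPM with ACs. Itga3 had 0.0499, 0.208 and 0.29 CPM with NACs and 1.43, 0.506 and 3.89 CPM with ACs. Both are among the 6 but met the expression filter only through their ACs libraries, so nothing is read from their calls. With the GC and length offset 5 integrin genes passed, all of them higher and Itgad and Itga3 among them, where 1.84% of all genes were higher. Without NACs replicate 2, ACs replicate 3 and ACs replicate 1 in turn 3, 2 and 0 integrin genes passed.

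Collagen genes made up another 3 of the 10 largest rises. Col1a2, a chain of type I collagen, had 3.54, 12.3 and 21.9 CPM with NACs and 117, 53.7 and 40.4 CPM with ACs (log2 fold change 2.48, SE 0.592, adjusted p = 0.0251, edgeR quasi-likelihood, Benjamini-Hochberg). Col3a1, the chain of type III collagen, rose by 2.26 (SE 0.554, adjusted p = 0.0162, same test) and Col4a1, a chain of basement membrane collagen, by 2.11 (SE 0.547, adjusted p = 0.0214, same test). Fibroblast markers, a list that itself holds Col1a1, Col1a2 and Col3a1, were counted beside them. Of the 9 tested, 4 passed as higher and 0 as lower (2.65% and 4.73% of all genes did), and these were Col1a2, Col3a1, Pdgfrb and Thy1. Thy1, at 0.449, 0.415 and 0.497 CPM with NACs, met the expression filter only through its ACs libraries. Pdgfrb, a growth factor receptor of mesenchymal cells, had 0.599, 2.39 and 1.62 CPM with NACs and 9.38, 4.09 and 3.75 CPM with ACs, while Lum was at most 0.205 CPM in any library. The list summed to 9.34 to 51.4 CPM with NACs and 90.7 to 257 CPM with ACs, the larger share of it from the collagen genes. The part of this list in the collagen values was not tested. With the GC and length offset none of the 3 collagen genes passed (adjusted p = 0.0515 to 0.0754), nor did any fibroblast marker. With 1 library left out the log2 fold change was 1.89 to 3.11 for Col1a2, 1.55 to 2.93 for Col3a1 and 1.65 to 2.81 for Col4a1. They passed in 2, 3 and 3 of these 6 refits.

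The largest falls were in genes of varied function. Pdcd10 (chromosome 3, 75516490 to 75556856), also known as CCM3, an adaptor of the STRIPAK kinase and phosphatase complex, had 188, 183 and 136 CPM with NACs and 6.35, 16.5 and 14.2 CPM with ACs. The groups lay far apart, with a 13.7-fold lower mean (log2 fold change −3.78, SE 0.437, adjusted p = 1.45e-05, edgeR quasi-likelihood, Benjamini-Hochberg). Eef1e1, an auxiliary subunit of the aminoacyl-tRNA synthetase complex, had 74.1, 112 and 70.6 CPM with NACs and 12.5, 14.5 and 10.5 CPM with ACs (log2 fold change −2.77, SE 0.4, adjusted p = 0.000432, same test). Samd9l, an interferon-inducible restriction factor, fell by 3.14 (SE 0.438, adjusted p = 0.000331, same test). Arhgap15, a GTPase-activating protein for Rac, Nxt2, an mRNA export factor, and Mospd2, a protein of membrane contact sites, fell by 2.99, 2.96 and 2.77 on the log2 scale. The zinc finger genes Zfp729b and Rsl1 fell by 3.45 and 2.75, and they belong to a cluster of near-identical copies on chromosome 13, so their split of reads is uncertain. The mitochondrial leucine tRNA gene mt-Tl1 fell by 2.81, and it adjoins mt-Nd1, which rose, so reads at the border of the pair could be counted to either. With the GC and length offset Rsl1 no longer passed (adjusted p = 0.0974), and the other 8 did, with log2 fold changes from −1.80 (Nxt2) to −2.52 (Pdcd10).

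Several C-type lectins, a family of pattern receptors on myeloid cells, fell, and these were also picked out after their values had been seen. Clec4e, which encodes Mincle, a receptor for mycobacterial glycolipid and for a nuclear protein of dead cells, had 365, 181 and 120 CPM with NACs and 38.6, 23.3 and 11.1 CPM with ACs. Clec4n, which encodes Dectin-2, had 1606, 641 and 452 CPM with NACs and 158, 147 and 176 CPM with ACs. Clec7a, which encodes the β-glucan receptor Dectin-1, had 1623, 1079 and 576 CPM with NACs and 198, 232 and 215 CPM with ACs. In each of these genes the groups did not overlap, and the log2 fold changes were −3.19, −2.49 and −2.34 (SE 0.494, 0.443 and 0.419, adjusted p = 0.00101, 0.0014 and 0.00143, edgeR quasi-likelihood, Benjamini-Hochberg). Of 16 C-type lectin genes tested, 4 passed as lower and 0 as higher (4.73% and 2.65% of all genes did), and the median of the family was −0.19. With the GC and length offset Clec4e and Clec4n passed and Clec7a (adjusted p = 0.0823) and Clec5a, the other call (adjusted p = 0.398), did not. Clec4a1 was then called higher (log2 fold change 1.56, adjusted p = 0.0473), and the family median was 0.31.

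**Figure D3:**
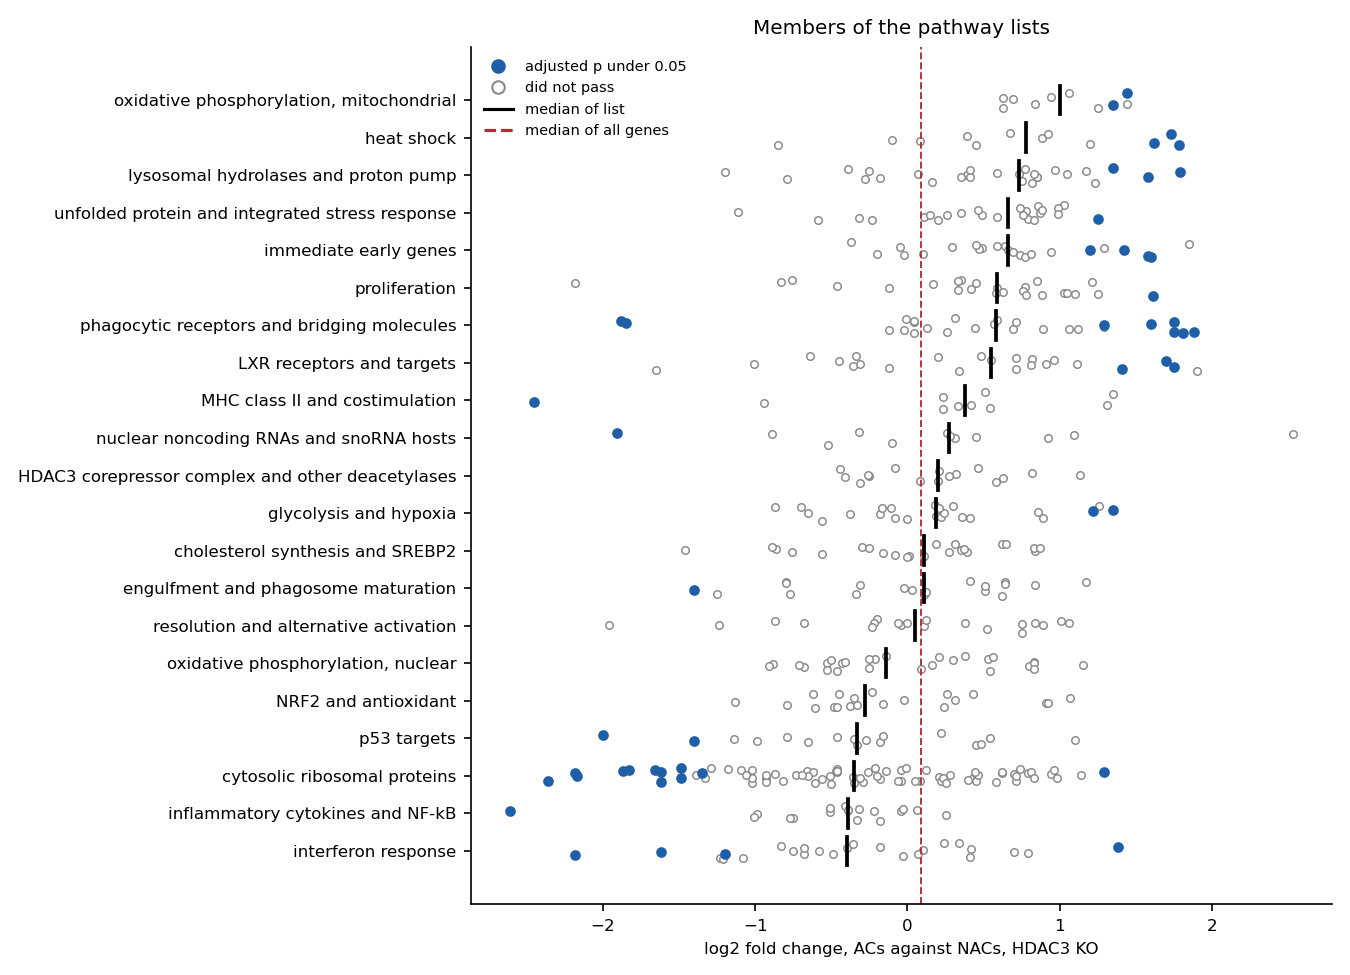
Log2 fold change with ACs against NACs (horizontal axis) of every tested member of the 21 pathway lists. Filled circles passed an adjusted p of 0.05, open circles did not, and the vertical tick is the median of the list. The dashed line is the median of all genes tested, 0.09. Most members of every list lie within 2 log2 units of 0, with medians from −0.40 for interferon response to 1.00 for mitochondrial respiratory chain genes.

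Among phagocytic receptors and bridging molecules more genes passed as higher than as lower. Of 28 listed 26 were tested, 6 passed as higher and 2 as lower (2.65% and 4.73% of all genes did), and the median log2 fold change was 0.58 against 0.09 for all genes. Cd5l (chromosome 3, 87357881 to 87371073), a secreted scavenger protein of macrophages and an LXR target, had 41.8, 150 and 177 CPM with NACs and 421, 317 and 500.2 CPM with ACs. The ACs libraries were all above the NACs libraries, a 3.35-fold difference (log2 fold change 1.75, SE 0.443, adjusted p = 0.0181, edgeR quasi-likelihood, Benjamini-Hochberg). Axl, a receptor kinase that binds dying cells through Gas6, had 27.7, 51.9 and 79.3 CPM with NACs and 189, 82.9 and 285 CPM with ACs (log2 fold change 1.81, SE 0.454, adjusted p = 0.0183, same test). Itgb3, the β3 chain of the receptor for Mfge8, had 4.49, 2.18 and 5.55 CPM with NACs and 15.1, 9.02 and 17.7 CPM with ACs (log2 fold change 1.75, SE 0.446, adjusted p = 0.0174, same test). Msr1, the class A scavenger receptor, moved the other way, from 164, 109 and 91.1 CPM to 28.9, 51.1 and 20.5 CPM (log2 fold change −1.85, SE 0.409, adjusted p = 0.0072, same test). The remaining calls, named after their values were seen, were Mfge8, the bridging molecule bound by that integrin (435, 266 and 233 CPM with NACs, 432, 787 and 1600 CPM with ACs, overlapping groups, log2 fold change 1.60, adjusted p = 0.0278, same test), C1qc, a chain of complement C1q (1.29, adjusted p = 0.0382, same test), Stab2, a phosphatidylserine receptor (1.88, adjusted p = 0.03, same test), and Marco, a scavenger receptor (−1.88, adjusted p = 0.0382, same test). Mfge8, Stab2 and Marco did not pass with the GC and length offset, nor did the 4 genes above (adjusted p = 0.0502 for Axl, 0.0515 for Itgb3, 0.0666 for Msr1 and 0.0737 for Cd5l), where 2 members of the list passed, C1qc among them. Without the offset C1qa and C1qb, for the other chains of C1q, gave 0.26 and 0.04 (adjusted p = 0.71 and 0.97, edgeR quasi-likelihood).

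Several receptors and ligands that the study measured or selected did not pass. Gas6, the ligand of Axl, had 219, 206 and 256 CPM with NACs and 584, 373 and 524 CPM with ACs, groups that did not overlap (log2 fold change 1.12, SE 0.376, adjusted p = 0.0625, edgeR quasi-likelihood, Benjamini-Hochberg). Mertk, a kinase related to Axl, had 63.6, 69.0 and 39.4 CPM with NACs and 57.8, 71.5 and 28.7 CPM with ACs, so the groups overlapped almost fully (log2 fold change −0.12, SE 0.396, adjusted p = 0.885, same test). Cd36, a scavenger receptor for oxidised lipids and for CD5L, had 455, 236 and 248 CPM with NACs and 279, 439 and 209 CPM with ACs (log2 fold change −0.02, SE 0.397, adjusted p = 0.985, same test). Its transcripts have a GC content of 38.8%, and with the GC and length offset its log2 fold change was 1.18 (adjusted p = 0.0412, same test). Lrp1, a receptor for calreticulin on dying cells, gave 0.57 (SE 0.372, adjusted p = 0.343, same test). Itgav encodes the αv chain that pairs with the β3 chain. It had 62.0, 47.1 and 56.3 CPM with NACs and 25.5, 100 and 38.2 CPM with ACs (log2 fold change −0.01, SE 0.425, adjusted p = 0.99, same test).

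**Figure D4:**
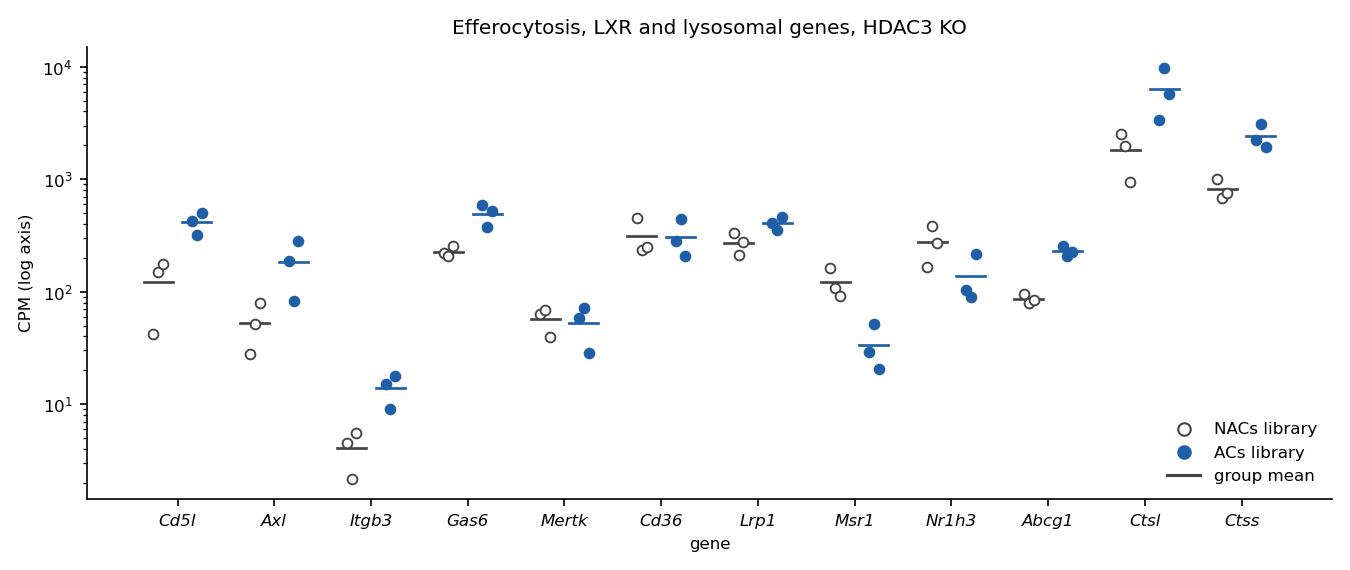
CPM on a log axis in each of the 6 libraries for Cd5l, Axl, Itgb3, Gas6, Mertk, Cd36, Lrp1, Msr1, Nr1h3, Abcg1, Ctsl and Ctss. Open circles are NACs libraries, filled circles ACs libraries and bars the group means. ACs libraries lie above NACs libraries in Cd5l, Axl, Itgb3, Gas6, Lrp1, Abcg1, Ctsl and Ctss and below them in Msr1, and the groups overlap in Mertk, Cd36 and Nr1h3.

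Genes that act inside the cell during uptake were listed next. Of 19 tested engulfment and phagosome maturation genes 1 passed, close to the 7.38% of all genes. It was Rab5a, a GTPase of early phagosomes, which fell from 21.3 to 23 CPM with NACs to 7.63 to 9.09 CPM with ACs (log2 fold change −1.40, SE 0.393, adjusted p = 0.029, edgeR quasi-likelihood, Benjamini-Hochberg). It did not pass with the GC and length offset (adjusted p = 0.072, same test). Dock2, an activator of Rac, gave 1.17 (adjusted p = 0.0709, same test) and Atg5, needed for LC3-associated phagocytosis, −1.25 (adjusted p = 0.0617, same test). Of 27 lysosomal genes 3 passed as higher and 0 as lower (2.65% and 4.73% of all genes did), with a median of 0.73. Ctss, a cysteine protease of the endolysosome, had 994, 678 and 757 CPM with NACs and 2242, 3084 and 1944 CPM with ACs (log2 fold change 1.58, SE 0.396, adjusted p = 0.016, same test). Ctsl, another protease of this class, had 2538, 1984 and 939 CPM with NACs and 3346, 9829 and 5726 CPM with ACs (log2 fold change 1.79, SE 0.456, adjusted p = 0.0174, same test). Gusb, the lysosomal β-glucuronidase, rose by 1.35 (SE 0.396, adjusted p = 0.0354, same test). With the offset Ctss (1.97) and Ctsl (2.07) passed and Gusb did not (adjusted p = 0.077). In that fit 4 members of the list were higher and 2 lower, where 1.84% and 3.71% of all genes were.

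Among LXR receptors and their targets 3 of 23 passed as higher and 0 as lower, against 2.65% and 4.73% of all genes, with a median of 0.55. Abcg1, the exporter of cholesterol to high-density lipoprotein, had 95.1, 78.5 and 84.0 CPM with NACs and 254, 208 and 226 CPM with ACs, narrow groups that stood well apart (log2 fold change 1.41, SE 0.37, adjusted p = 0.02, edgeR quasi-likelihood, Benjamini-Hochberg). Acaca, which makes malonyl-CoA for fatty acid synthesis, rose by 1.70 (SE 0.436, adjusted p = 0.0179, same test), and Cd5l was the other. Abcg1 and Acaca passed with the GC and length offset too. Abca1, the other exporter named above, was looked at after its values had been seen. It had 233, 99.5 and 149 CPM with NACs and 145, 140 and 95.1 CPM with ACs. These groups overlapped (log2 fold change −0.34, SE 0.388, adjusted p = 0.616, same test). Of the 23 genes 15 had a log2 fold change above 0 and 8 below. Scd1, the stearoyl-CoA desaturase, gave 1.90 (SE 0.639, adjusted p = 0.0634, same test). Nr1h3, which encodes LXRα itself, had 166, 386 and 269 CPM with NACs and 103, 90.4 and 216 CPM with ACs (log2 fold change −1.01, SE 0.414, adjusted p = 0.127, same test), and −1.26 with the offset (adjusted p = 0.0321, same test). Cholesterol synthesis genes under SREBP2 gave 0 calls of 23 by DESeq2, by limma-voom and by edgeR's quasi-likelihood test. At an unadjusted p under 0.05 by the last of these there were 4, where 25.3% of all genes were. Their median of 0.11 was −0.06 with library totals and −0.03 with the offset, where 1 member passed as lower. Their smallest unadjusted p belonged to Idi1, at −1.46 on the log2 scale (adjusted p = 0.104, same test).

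Of 18 cytokine and NF-κB genes tested 16 had a log2 fold change below 0, with a median of −0.39, but 1 passed, close to the 4.73% of all genes called lower. That gene was Cxcl2, a neutrophil chemoattractant, with 12.2, 7.89 and 7.01 CPM with NACs and 1.48, 2.12 and 0.777 CPM with ACs (log2 fold change −2.61, SE 0.494, adjusted p = 0.00229, edgeR quasi-likelihood, Benjamini-Hochberg). Il1b, the precursor of interleukin-1β, was low at 0.707 to 3.29 CPM in all 6 libraries and did not pass (−0.99, adjusted p = 0.301, same test). Nfkbiz, an inducible regulator of NF-κB target genes, gave −1.01 (adjusted p = 0.11, same test). In the interferon response list 3 of 25 passed as lower and 1 as higher, against 4.73% and 2.65% of all genes, and the median was −0.40. Ifit2, which binds viral RNA, had 76.1, 35.3 and 54.3 CPM with NACs and 8.15, 17.3 and 11.1 CPM with ACs (log2 fold change −2.18, SE 0.423, adjusted p = 0.0025, same test). Rtp4 and Mx2 fell by 1.20 (adjusted p = 0.0424, same test) and 1.62 (adjusted p = 0.0476, same test), while Oas3, which makes the activator of RNase L, rose by 1.38 (adjusted p = 0.0382, same test). Cxcl2, Ifit2, Rtp4 and Mx2 passed with the GC and length offset and Oas3 did not (adjusted p = 0.121).

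The costimulatory ligand gene Cd86 had the lowest p of the antigen presentation list. It fell from 267, 190 and 119 CPM with NACs to 54.2, 32.0 and 19.3 CPM with ACs (log2 fold change −2.45, SE 0.431, adjusted p = 0.00131, edgeR quasi-likelihood, Benjamini-Hochberg), and it passed with the GC and length offset (−2.10, adjusted p = 0.0132, same test). It was the only call among the 10 genes tested, near the 7.38% of all genes, while DESeq2 and limma-voom each called 2 members and 2 were lower with the offset. Cd74, the invariant chain of MHC class II, had 60.5, 247 and 284 CPM with NACs and 440, 466 and 597 CPM with ACs, groups that did not overlap, and did not pass (log2 fold change 1.35, SE 0.449, adjusted p = 0.0644, same test). The resolution and alternative activation list gave 0 calls of 20 by edgeR's quasi-likelihood test, 1 by DESeq2 and 0 by limma-voom. At an unadjusted p under 0.05 by the first of these there were 4, where 25.3% of all genes were. The median of the list was 0.05, and −0.15 with library totals.

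Some immediate early genes, which respond to signals within minutes to hours, rose. Immediate early genes gave 4 calls of 23, all higher where 2.65% of all genes were, and a median of 0.66. Junb, a subunit of AP-1, had 131, 111 and 141 CPM with NACs and 268, 371 and 386 CPM with ACs (log2 fold change 1.42, SE 0.376, adjusted p = 0.0212, edgeR quasi-likelihood, Benjamini-Hochberg). Jun, its partner in AP-1, Egr2, a zinc finger factor of alternatively activated macrophages, and Klf4, a Krüppel-like factor, rose by 1.20, 1.60 and 1.58 on the log2 scale (adjusted p = 0.0452, 0.0204 and 0.0303, same test). With the GC and length offset Junb passed and the other 3 did not (adjusted p = 0.0675 to 0.096). In the list for the unfolded protein and integrated stress responses 20 of 24 genes had a log2 fold change above 0, with a median of 0.66. At an unadjusted p under 0.05 by the same test there were 10 members, where 25.3% of all genes were. Of the 24, 1 passed as higher, where 2.65% of all genes did. This was Xbp1, the transcript spliced by IRE1, with 51.3, 58.0 and 77.9 CPM with NACs and 136, 105 and 205 CPM with ACs (log2 fold change 1.25, SE 0.385, adjusted p = 0.0435, same test), which did not pass with the offset (adjusted p = 0.0778).

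The heat shock list gave 3 calls of 12, all higher where 2.65% of all genes were, with a median of 0.78. Bag3, a cochaperone of Hsp70 in selective autophagy, had 27.9, 24.9 and 34.4 CPM with NACs and 90.8, 61.2 and 137 CPM with ACs, with no overlap (log2 fold change 1.73, SE 0.393, adjusted p = 0.00938, edgeR quasi-likelihood, Benjamini-Hochberg). Hspa1a and Hspa1b, neighbouring genes for the inducible Hsp70, rose by 1.78 and 1.62 (SE 0.514 and 0.493, adjusted p = 0.0335 and 0.0414, same test), from at most 3.74 CPM with NACs. Their coding sequences are near-identical, so how reads were split between them is uncertain. Bag3 and Hspa1a passed with the GC and length offset and Hspa1b did not (adjusted p = 0.0614). Heat shock factor 1 binds inverted repeats of the letters GAA, and the 8 letters GAANNTTC, which read the same on both strands, were looked for in windows from 250 bases before to 50 after each start site, from RefSeq on GRCm38.p6. Of the 12 genes of the list 8 had a window and 7 of these held the letters in at least 1 window, the 3 called genes included, against 9.04% of 27025 genes. By window the counts were 8 of 11, against 7.86% of 32851 windows of the same length. Windows of 1 gene can overlap, and the neighbours Hspe1 and Hspd1 share a single match read on opposite strands. Hspa1a and Hspa1b have the same match at base 147 of near-identical windows. In Bag3 it begins at base 293, after the start site. Hsph1, Hspb1, Hspd1 and Hspe1 also held the letters and did not pass, with log2 fold changes of 0.67, 1.20, 0.08 and −0.85. The list was chosen as heat shock genes, so its share is not a result about ACs. A match is a description of the sequence and not a site of binding. The windows of the pair of called genes that also passed with the offset, 5′ to 3′ with the match in capitals, are chr17:34972107-34972406 on the reverse strand for Hspa1a and chr7:128523333-128523632 on the forward strand for Bag3.
Hspa1a: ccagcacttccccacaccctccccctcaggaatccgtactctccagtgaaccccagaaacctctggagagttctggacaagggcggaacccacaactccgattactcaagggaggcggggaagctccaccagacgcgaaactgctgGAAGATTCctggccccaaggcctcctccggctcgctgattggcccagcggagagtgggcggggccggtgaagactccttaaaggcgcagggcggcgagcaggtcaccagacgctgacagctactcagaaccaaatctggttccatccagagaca
Bag3: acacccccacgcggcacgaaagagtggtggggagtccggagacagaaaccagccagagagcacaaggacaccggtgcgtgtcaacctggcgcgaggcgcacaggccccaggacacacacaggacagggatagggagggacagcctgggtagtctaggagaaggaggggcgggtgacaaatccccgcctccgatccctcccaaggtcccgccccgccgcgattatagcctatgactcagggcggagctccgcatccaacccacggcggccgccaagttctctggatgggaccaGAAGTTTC

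Genes of energy metabolism were listed by genome. Of 10 mitochondrially encoded respiratory chain genes tested all 10 had a log2 fold change above 0, with a median of 1.00, and 2 passed, where 2.65% of all genes were called higher. mt-Nd4, a subunit of complex I, had 164, 159 and 118 CPM with NACs and 507, 437 and 254 CPM with ACs (log2 fold change 1.44, SE 0.389, adjusted p = 0.0236, edgeR quasi-likelihood, Benjamini-Hochberg). mt-Nd1, another subunit, rose by 1.35 (SE 0.393, adjusted p = 0.0341, same test). Their GC content is low, the median of the list being 37.4%, and with the GC and length offset 7 of the 10 passed as higher, where 1.84% of all genes did. None of the 10 passed without NACs replicate 1, 2 or 3 or without ACs replicate 1. Mitochondrial genes took 0.409% to 0.577% of all counts with NACs and 1.19%, 0.493% and 0.689% in ACs replicates 1 to 3. Nuclear genes of oxidative phosphorylation gave 0 calls of 27 by edgeR's quasi-likelihood test, 2 by DESeq2 and 0 by limma-voom. At an unadjusted p under 0.05 by the first of these there were 7, where 25.3% of all genes were. Their median was −0.14, and with the offset 4 were higher and 3 lower. In glycolysis 2 of 23 passed, both higher where 2.65% of all genes were. Ldha, which makes lactate, had 441, 488 and 422 CPM with NACs and 859, 1049 and 1238 CPM with ACs (log2 fold change 1.22, SE 0.379, adjusted p = 0.0456, same test). Hk1, a hexokinase, passed with groups that overlapped, at 63.5, 52.3 and 57.6 CPM with NACs and 147, 55.8 and 238 CPM with ACs (adjusted p = 0.0491, same test). Neither passed with the offset, and the list had 0 calls with DESeq2 size factors, with library totals, or without any single library other than ACs replicate 2.

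More ribosomal protein genes fell than rose. Of 81 tested 11 passed as lower and 1 as higher, where 4.73% and 2.65% of all genes did, 52 had a log2 fold change below 0, and the median was −0.35. Rps7 had 2474, 2198 and 1200 CPM with NACs and 346, 566 and 235 CPM with ACs (log2 fold change −2.36, SE 0.432, adjusted p = 0.00182, edgeR quasi-likelihood, Benjamini-Hochberg). Rpl39 had 1061, 1219 and 566 CPM with NACs and 163, 310 and 159 CPM with ACs (log2 fold change −2.17, SE 0.421, adjusted p = 0.0025, same test). Rpl35 and Rpl17 fell by 1.83 and 1.87 (adjusted p = 0.0113 and 0.0115, same test). These genes have processed copies in the genome with near-identical sequence, which could take part of their reads. The median GC content of the list, 51.8%, was close to that of all genes. With the GC and length offset 14 passed as lower and 4 as higher, where 3.71% and 1.84% of all genes did. Ribosomal proteins together took 8.14%, 9.47% and 6.59% of counts with NACs and 4.34%, 6.87% and 4.18% with ACs. In the same libraries the ribosomal RNA-like gene Gm42418, picked out after its values were seen, took 0.609%, 0.844% and 0.796% of counts with NACs and 3.58%, 0.62% and 4.18% with ACs replicates 1 to 3. The part of ribosomal RNA in these results was not tested.

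Of the p53 targets 2 of 17 fell and 0 rose, against 4.73% and 2.65% of all genes. Fas, the death receptor, had 18.1, 18.6 and 13.1 CPM with NACs and 5.69, 3.59 and 3.11 CPM with ACs (log2 fold change −2.0, SE 0.423, adjusted p = 0.00501, edgeR quasi-likelihood, Benjamini-Hochberg), and Ccng1, cyclin G1, fell by 1.40 (adjusted p = 0.0385, same test). With the GC and length offset they had adjusted p of 0.0533 and 0.578. Of 25 proliferation genes 20 had a log2 fold change above 0, with a median of 0.59, and 1 passed as higher, where 2.65% of all genes did. It was Plk1, a mitotic kinase, which rose by 1.61 with ACs replicate 2 inside the range of the NACs libraries (adjusted p = 0.034, same test) and did not pass with the offset (adjusted p = 0.0594). Among nuclear noncoding RNAs Neat1, the scaffold of paraspeckles, fell from 228, 184 and 323 CPM with NACs to 38.4, 78.8 and 78.5 CPM with ACs (log2 fold change −1.91, SE 0.403, adjusted p = 0.00477, same test), and it passed with the offset as well. NRF2 targets gave 0 calls of 20 and genes of the HDAC3 corepressor complex and other deacetylases 0 of 16 by the same test, with medians of −0.28 and 0.20. At an unadjusted p under 0.05 these lists held 4 genes and 1 gene, where 25.3% of all genes were. DESeq2 and limma-voom called 0 in either list. Of 300 genes with a symbol starting Zfp 47 passed as lower and 1 as higher, against 4.73% and 2.65% of all genes. That family was noticed after its values were seen and has a median GC content of 45.4%. With the offset 14 of the 300 were lower, near the 3.71% of all genes, and 1 was higher.

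Markers of macrophage subsets and of other cells were compared in the same way. Of 14 macrophage markers Cebpa, a factor that specifies myeloid fate, rose from 253, 292 and 343 CPM with NACs to 611, 655 and 935 CPM with ACs (log2 fold change 1.31, SE 0.381, adjusted p = 0.0341, edgeR quasi-likelihood, Benjamini-Hochberg), and no other passed, near the 7.38% of all genes. Lyz2, the locus that drives Cre, had 13780, 5347 and 9345 CPM with NACs and 6546, 11450 and 4249 CPM with ACs (log2 fold change −0.36, adjusted p = 0.651, same test). Of 5 osteoclast genes tested 2 passed as higher, where 2.65% of all genes did. They were Acp5, the tartrate-resistant acid phosphatase (30.0, 18.3 and 22.7 CPM with NACs, 37.6, 78.2 and 107 CPM with ACs, adjusted p = 0.016, same test) and Dcstamp, a protein of cell fusion (adjusted p = 0.032, same test). Both passed with the GC and length offset. Dcstamp, at 0.549, 0.104 and 0.829 CPM with NACs, met the expression filter only through its ACs libraries. Ltf, the lactoferrin gene of granulocytes, rose by 1.37 (adjusted p = 0.0382, same test) but did not pass with the offset (adjusted p = 0.106), while 8 of the 12 granulocyte markers had a log2 fold change below 0, with a median of −0.58. S100a9, which is abundant in neutrophils, had 83.0, 263 and 118 CPM with NACs and 68.1, 129 and 24 CPM with ACs, overlapping groups that did not pass but did without ACs replicate 2 (adjusted p = 0.00896, same test). The 12 markers summed to 354 to 1030 CPM with NACs and 527 to 886 CPM with ACs. B cell markers gave 0 calls of 5 and T and NK cell markers 0 of 2 by the same test, by DESeq2 and by limma-voom. At an unadjusted p under 0.05 by the same test there were 2 and 0, where 25.3% of all genes were. Of 10 dendritic cell markers 3 were tested and 1 passed as higher, where 2.65% of all genes did, with a median of 0.50. It was Itgax, while Flt3, Zbtb46 and Xcr1 had at most 0.311, 0.565 and 0.506 CPM and were not tested. In bulk RNA fewer cells of a type and less RNA per cell cannot be told apart.

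How many members of a list passed depended on single libraries and on scaling. With library totals in place of TMM factors 2 phagocytic receptors and bridging molecules were higher and 1 lower, 1 immediate early gene, 1 heat shock gene and 1 LXR target were higher, and fibroblast markers and collagen genes had 0 calls, where 0.629% of all genes were higher and 4.09% lower. Without NACs replicate 2, when 0.361% of all genes were higher and 2.07% lower, the count of higher genes was 1 for phagocytic receptors and bridging molecules and 0 for lysosomal, immediate early and heat shock genes, and 2 ribosomal proteins were lower. Without NACs replicate 3 lysosomal and immediate early genes had 0 higher too, and 14 ribosomal proteins were lower, against 1.37% higher and 3.32% lower of all genes. Without NACs replicate 1 there were 2 phagocytic receptors, 1 immediate early gene and 1 heat shock gene higher and 6 ribosomal proteins lower, against 0.96% higher and 2.44% lower of all genes. Without ACs replicate 1 no member of any list passed, as no gene did. Without ACs replicate 3 phagocytic receptors and bridging molecules had 0 higher and 0 lower, fibroblast markers 0 and 0, immediate early genes 1 higher, heat shock genes 1 higher, LXR receptors and targets 1 higher, lysosomal genes 1 higher and 1 lower, and ribosomal proteins 3 lower, where 0.56% of all genes were higher and 1.84% lower. The median of phagocytic receptors was then 0.41 and that of ribosomal proteins −0.30. Without ACs replicate 2, the library that stood apart, more members of most lists passed, as did more of all genes (12% higher and 11.9% lower). Proliferation genes had 9 higher and 0 lower in place of 1 higher, and the median was 0.81 in place of 0.59. LXR receptors and targets had 8 higher and 0 lower, with a median of 0.34. Ribosomal proteins had 0 higher and 23 lower, with a median of −0.57, and lysosomal genes 6 higher and 0 lower. Phagocytic receptors and bridging molecules had 8 higher and 2 lower, immediate early genes 7 higher and 1 lower, and heat shock genes 3 higher and 1 lower. Of the resolution and alternative activation genes 5 passed as higher and 0 as lower. In the interferon list 6 passed as lower and 2 as higher, and in the cytokine list 2 as lower. Medians changed sign without this library in the cholesterol synthesis list (−0.01), the nuclear noncoding RNA list (−0.70 in place of 0.27) and the erythroid marker list (0.22 in place of −0.21).

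Whether ACs and NACs differed in another way under the WT label was tested as an interaction over the 12 libraries with ACs or NACs. Hdac3 did not separate these labels, with 3.38 to 48.7 CPM in the 9 WT libraries and 4.66 to 74.6 CPM in the 9 HDAC3 KO libraries, the highest value being that of an HDAC3 KO library without treatment, so the contrast is one of labels. Of 13076 genes 10 (0.0765%) passed an adjusted p of 0.05 in the edgeR quasi-likelihood test (Benjamini-Hochberg), 4 of them with a higher and 6 with a lower log2 fold change under the HDAC3 KO label. The 4 were Itgax, Sdc1, Folr2, a folate receptor of tissue macrophages, and Stmn1, which destabilises microtubules. Stmn1 had 27.7, 35.0 and 33.0 CPM with NACs and 16.5, 17.3 and 15.7 CPM with ACs under the WT label, and 12.9, 16.4 and 17.9 CPM with NACs and 48.3, 42.9 and 51.1 CPM with ACs under the HDAC3 KO label. The groups did not overlap under either label, and their order was opposite (difference of log2 fold changes 2.54, SE 0.443, adjusted p = 0.0303, same test). Folr2 had 378, 317 and 667 CPM with NACs and 93.9, 123 and 202 CPM with ACs under the WT label, and 129, 182 and 205 CPM with NACs and 558, 275 and 714 CPM with ACs under the HDAC3 KO label (difference 3.28, SE 0.596, adjusted p = 0.033, same test). Among the 6, Samd9l had 4.92, 12.4 and 4.62 CPM with NACs and 14.5, 10.1 and 17.9 CPM with ACs under the WT label, and 21.6, 19.5 and 30.8 CPM with NACs and 2.33, 2.17 and 3.65 CPM with ACs under the HDAC3 KO label (difference −4.10, SE 0.612, adjusted p = 0.0114, same test). Xiap, an inhibitor of caspases, gave a difference of −3.40 (SE 0.64, adjusted p = 0.0422, same test). In Stmn1 and Folr2 the WT libraries with ACs overlapped the HDAC3 KO libraries with NACs. In Folr2 the WT libraries with NACs also overlapped the HDAC3 KO libraries with ACs, while Samd9l had neither overlap. The parts of genotype, labelling and processing in these opposite differences were not tested and cannot be told apart here. For Cd5l the difference was 2.59 and did not pass (adjusted p = 0.12, same test). The 10 genes passed with the GC and length offset as well (adjusted p = 0.00927 to 0.0267, same test). How many genes passed for the interaction depended on single libraries. None passed without WT-NAC replicate 1, WT-NAC replicate 3, HDAC3 KO-NAC replicate 3 or HDAC3 KO-AC replicate 1 (1919 to 2336 at an unadjusted p under 0.05), 826 passed without HDAC3 KO-AC replicate 2, 782 without WT-NAC replicate 2 and 228 without WT-AC replicate 2. Without WT-AC replicate 1, HDAC3 KO-NAC replicate 1, HDAC3 KO-NAC replicate 2 and HDAC3 KO-AC replicate 3 the counts were 5, 2, 2 and 4.

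**Figure D5:**
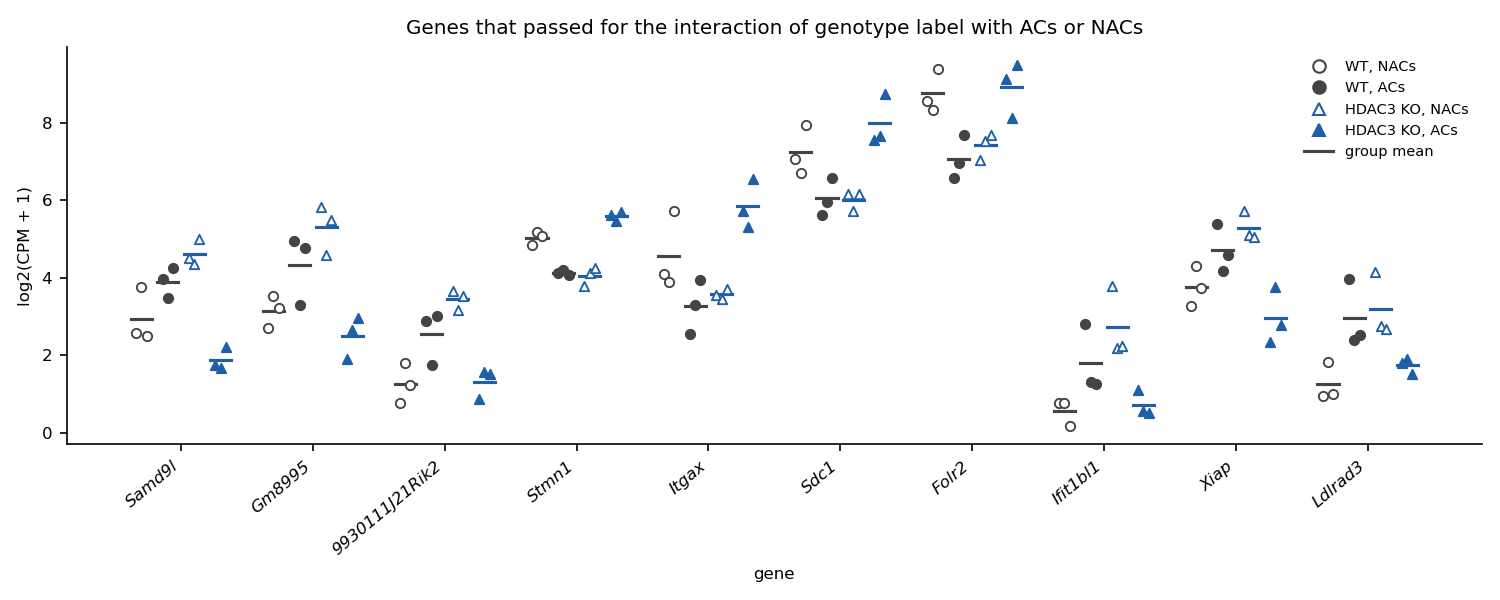
Log2 of CPM plus 1 (vertical axis) in the 12 libraries with ACs or NACs for the 10 genes with an adjusted p under 0.05 for the interaction. Circles are WT and triangles HDAC3 KO libraries, open for NACs and filled for ACs, with bars at the group means. In each gene the difference between ACs and NACs has one sign under the WT label and the other under the HDAC3 KO label.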

How the data were processed

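RNA of BMDMs labelled HDAC3 KO and WT was sequenced, and the authors deposited raw read counts per gene for each library. The submitters' processing notes name GRCm38, Trimmomatic 0.36, STAR 2.5.2b, featureCounts and Subread 1.5.2. The setting for strand is not given in the sources used here, so reads of overlapping and antisense genes may not be told apart. Each file held 49315 genes and no other entries, and 48970 identifiers had a symbol in GENCODE M21. Genes without a symbol were left out of the named genes, and the listed symbols Snhg7 and Ahsp were not matched.

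Genes were kept by edgeR's filterByExpr (at least 10 counts, total 15), scaled with TMM and fitted with edgeR 4.0.16 quasi-likelihood (robust, R 4.3.3) on the 6 libraries. The p-values were adjusted over all tested genes by the Benjamini-Hochberg method, with calls at 0.05. Single values were tested by exact two-sided permutation, for which 3 against 3 libraries cannot go below p = 0.1. The interaction was fitted on 12 libraries. An offset for transcript GC content and length was fitted per library with mgcv 1.9.3 splines. The p-values measure the spread between libraries. The study's methods give 3 animals per group and do not state whether ACs and NACs libraries came from the same animals. At 9431435 to 22664522 counts per library, genes under a few CPM are measured with low precision.

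Named genes were the 10 largest changes in each direction among called genes with non-overlapping groups and a mean of at least 5 CPM, the 4 members of each list with the lowest p, a set of genes the study measured, and up to 10 interaction genes. 1 of the largest rises is not reported here. The members and the 29 lists (21 of pathways, 8 of cell markers) were chosen with earlier results of these data known, and families and Gm42418 were added after their values were seen. Alternatives were DESeq2 1.42.0, limma-voom 3.58.1, other scaling, filters and library sets, a replicate block and each library left out. The code was tested on simulated data. Promoter sequences came from RefSeq and coding starts from GENCODE transcripts.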

Additional observations from a re-analysis of the deposited data

Results flagged for a closer look

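In 10 genes the difference between ACs and NACs under the HDAC3 KO label was not the same as under the WT label in the edgeR quasi-likelihood test of the interaction (Benjamini-Hochberg). Values below are the log2 fold change under HDAC3 KO minus that under WT. The higher ones were Itgax (4.00, SE 0.702, adjusted p = 0.0303), Sdc1 (3.31, SE 0.585, adjusted p = 0.0303), Folr2 (3.28, SE 0.596, adjusted p = 0.033) and Stmn1 (2.54, SE 0.443, adjusted p = 0.0303). Sdc1 had 133, 102 and 243 CPM with NACs and 48.4, 61.2 and 93.8 CPM with ACs under the WT label, and 70.7, 51.7 and 70.0 CPM with NACs and 186, 200.4 and 425 CPM with ACs under the HDAC3 KO label. Itgax had 16.0, 13.7 and 51.4 CPM with NACs and 4.83, 8.85 and 14.3 CPM with ACs under the WT label, where the groups overlapped, and 10.8, 9.92 and 12.2 CPM against 51.7, 38.7 and 91.8 CPM under the HDAC3 KO label.

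The lower ones were Samd9l (−4.10, adjusted p = 0.0114), Gm8995 (−4.47, adjusted p = 0.0114), 9930111J21Rik2 (−4.49, adjusted p = 0.0295), Ifit1bl1 (−5.83, adjusted p = 0.033), Xiap (−3.40, adjusted p = 0.0422) and Ldlrad3 (−4.33, adjusted p = 0.0422), all by edgeR. Xiap, an inhibitor of caspases, had 8.58, 18.9 and 12.2 CPM with NACs and 40.6, 17.1 and 23.1 CPM with ACs under the WT label, and 51.6, 33.1 and 32.2 CPM with NACs and 4.04, 12.6 and 5.85 CPM with ACs under the HDAC3 KO label. Gm8995 had 5.49, 10.5 and 8.35 CPM with NACs and 30.0, 8.85 and 26.0 CPM with ACs under the WT label, and 55.7, 23.1 and 43.7 CPM with NACs and 2.76, 5.24 and 6.74 CPM with ACs under the HDAC3 KO label. Ifit1bl1 and Ldlrad3 were low, at most 12.8 and 16.6 CPM in any of the 12 libraries. Symbols show that 9930111J21Rik2 has a numbered copy, 9930111J21Rik1, so its split of reads is uncertain.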

How the results depend on the processing

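The number of genes called between ACs and NACs was 904. It was 578 with library totals, 252 with all 18 libraries in one fit and 1400 with the DESeq2 Wald test, which called 900 of the 904. For these settings the cause was not tested. Leaving out one library in turn gave 0 to 3013. For the interaction the count was 10. It was 38 with DESeq2 size factors, 3 with library totals, 755 with the DESeq2 Wald test, 537 with no filter, 3 with all 18 libraries and 290 with the GC and length offset, an alternative chosen after seeing the data. Leaving out one library in turn gave 0 to 826. Hdac3 changed sign with limma-voom (log2 fold change 0.07), and leaving out one library gave −0.963 to 0.202. Among the genes followed across settings that had not passed, Cd36, Lyz2 and Mertk changed sign. Cd36 did so with the offset (1.177, and 1.224 with the replicate block added) and with a library left out (−0.359 to 0.355). With a library left out Lyz2 gave −0.814 to 0.012 and Mertk −0.402 to 0.181. Most genes named in the text were followed across settings. For these, 791 results under settings other than a left-out library kept direction and side of the threshold, 160 no longer passed and 20 passed only there. With a library left out these numbers were 333, 239 and 10.

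Replicate numbers are shared by the groups. Deviations of same-numbered NACs and ACs libraries correlated at 0.0745, 0.0593 and 0.0695, while NACs replicate 3 and ACs replicate 1 correlated at 0.20. With 3 libraries per group these values do not decide whether replicate numbers mark pairs. Whether libraries of one number share an animal is not stated. With the replicate block 1400 genes passed in place of 904, and 899 of the 904 were among them. For the interaction 10 passed with the block.

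Limits are the 3 libraries per group, the unequal GC profile of the ACs libraries, and the large weight of ACs replicates 1 and 2 on counts of calls. Depth limits genes under a few CPM, such as Il1b, and called genes that were this low with NACs, such as Hspa1a and Stab2.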

Other observations

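Families of like symbol were counted after their values had been seen, against 2.65% of all genes called higher and 4.73% called lower. Of 8 tested Ms4a genes, which encode membrane proteins of immune cells related to CD20, 4 fell and 0 rose after ACs in the edgeR quasi-likelihood test (Benjamini-Hochberg), with a median log2 fold change of −1.05. Ms4a7, a marker of tissue macrophages, had 1528, 1569 and 1228 CPM with NACs and 571, 619 and 343 CPM with ACs (log2 fold change −1.50, SE 0.393, adjusted p = 0.0203, same test). The ACs libraries all lay below the NACs libraries. Ms4a6b and Ms4a6c fell by 2.05 and 1.87. In the Ifi200 family, DNA sensors and regulators induced by interferon, 4 of 9 fell, 0 rose and the median was −1.60. Ifi204 had 96.0, 71.6 and 77.2 CPM with NACs and 14.2, 39.6 and 12.7 CPM with ACs (log2 fold change −1.88, SE 0.428, adjusted p = 0.00938, same test). These paralogs are alike in sequence, so their split of reads is uncertain.

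Transcripts of both families are poor in G and C, with median GC contents of 43.1% and 40.9%, and neither had a call once the GC and length offset was fitted. Their medians were then −0.33 and −0.65, and Ms4a7 had an adjusted p of 0.0507. Of 79 genes for mitochondrial ribosomal proteins, the ribosome that makes the respiratory chain subunits encoded in mitochondria, 8 fell and 0 rose with a median of −0.44, and with the offset 8 were lower and 2 higher. The part of base composition in these counts was not tested further.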
